A study of Mus musculus with 12 samples.

Results

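The synaptonemal complex and axis genes measured here were Sycp1, Sycp2, Sycp3, Syce1, Syce2, Syce3, Tex12, Tex11, Hormad1 and Hormad2, in testes of mouse embryos at stage E15.5. They were found as all probe sets that the platform annotation assigns to one of these genes and to no other, which gave 10 probe sets, 1 for each gene, of the 45101 on the array. A probe set is a group of short probes against one transcript, and its value is an intensity. All 10 passed the filter on dim probe sets, an intensity of at least 16 (a log2 value of 4) on at least 3 of the 12 arrays, as did 24820 probe sets in all. The arrays fell into 4 groups of 3, labelled dmrt1 knockout and WT in the 129Sv strain and dmrt1 knockout and WT in the B6 strain. The series title and design text describe a conditional removal, but neither the deleted part of Dmrt1 nor a Cre line is named in the labels. The growth protocol gives P28 where the age label gives E15.5. No treatment is given for any group.

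During meiosis each pair of sister chromatids is organised on a protein axis, and the axes of paired homologous chromosomes are joined along their length by the synaptonemal complex. Sycp2 and Sycp3 encode the axis core, Hormad1 and Hormad2 encode HORMA domain proteins that sit on axes not yet joined, Sycp1 encodes the transverse filament, and Syce1, Syce2, Syce3 and Tex12 encode the central element. Tex11 is an X-linked gene whose product acts in the formation of crossovers. In mice female germ cells enter meiosis in the fetal ovary, whereas male germ cells of the fetal testis stop dividing and enter meiosis only after birth, and Dmrt1 encodes a DM domain transcription factor of germ cells and Sertoli cells. The comparisons ask how these meiotic genes differ when Dmrt1 is removed in each strain, whether the strains differ in that, and how the strains differ from each other.

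Dmrt1 itself, measured by 1 probe set, lay between 145.3 and 181.5 in 129Sv knockout testes against 923.5 to 1183 in 129Sv wild-type testes, and between 63.97 and 86.42 in B6 knockout testes against 795.1 to 1092 in B6 wild-type testes. Of the somatic markers of the testis, Sox9 (Sertoli cells) and Cyp17a1 (fetal Leydig cells) were above an intensity of 16 on all arrays. Of 6 markers of ovarian somatic cells, Wnt4, Rspo1, Fst and Bmp2 were above it on all arrays too, while Foxl2 was below it on every array but B6 knockout replicate 3, where it read 54.33. That array stood apart in other ways. Its Actb control probe sets had the highest 3′ over 5′ ratio (6.30, against 1.99 to 5.24 on the others), a measure that rises when RNA is degraded. Of 6 germ cell markers 5 were tested (Ddx4, Dazl, Mael, Dnd1 and Tdrd1), and their summed intensity was 5504 on that array and 7729 and 9020 on the other B6 knockout arrays. The same sum was 12428 to 15873 in 129Sv knockout, 14071 to 14592 in 129Sv wild-type and 10764 to 12197 in B6 wild-type testes. Whole testes were measured, so fewer germ cells and less RNA per germ cell cannot be told apart. The sample titles carry differing codes on most arrays without saying whether each marks a separate animal, so p-values may reflect only technical spread among the arrays. The last number of the sample titles runs from 7 to 12 in 129Sv, from 1 to 3 in B6 knockouts and from 4 to 6 in B6 wild types. What it stands for is not stated, and neither the strains nor the B6 knockouts and B6 wild types can be told apart from it.

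In 129Sv testes Sycp1 and Hormad2 rose in the knockout and no gene of the complex or axis fell past the threshold (limma, Benjamini-Hochberg adjusted p under 0.05 over all 24820 probe sets). Those 2 of 10 stand beside 5.24% of all probe sets called in this comparison, 2.74% higher and 2.51% lower. Both calls held in all 12 fits that left out 1 array. Sycp1 read 977.15, 826.53 and 887.89 on the knockout arrays and 317.70, 513.51 and 461.12 on the wild-type arrays. Every knockout array lay above every wild-type array, and the difference was 1.08 ± 0.21 on the log2 scale (SE, n = 3 per group, 2.12-fold, limma adjusted p = 0.00762). Hormad2 read 54.99, 49.15 and 40.02 in knockouts and 18.33, 22.51 and 19.83 in wild types, again without overlap. Its difference was 1.24 ± 0.19 (2.36-fold, limma adjusted p = 0.0017), but its wild-type intensities were close to 16, below which the values carry little signal. A RefSeq entry, Sycp1-ps1, is a transcribed pseudogene of Sycp1, and whether the Sycp1 probes also read it was not tested. In the 129Sv titles a further number stands ahead of the strain name. It is 7 for the knockouts and wild-type replicate 2, and 11 for the remaining wild types. Adjusting for it thus compares the knockouts with 1 wild-type array. The log2 differences were then 0.80 for Sycp1 and 1.08 for Hormad2, and such a fit cannot decide whether the calls depend on that number.

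The other 8 genes did not pass in 129Sv, and 95% confidence intervals show what their values allow. Tex12 read 737.07, 819.55 and 1412.53 in knockouts and 1486.74, 2041.59 and 1670.12 in wild types, so the groups did not overlap, with a log2 difference of -0.86 ± 0.28 (SE, interval -1.45 to -0.26, limma adjusted p = 0.103). Sycp2 likewise lay lower without overlap, at 483.22, 415.37 and 545.10 in knockouts against 594.97, 840.76 and 796.70 in wild types (-0.62 ± 0.28, limma adjusted p = 0.267). The Tex11 intensities were 518.93, 480.53 and 476.02 in knockouts and 325.46, 369.42 and 293.79 in wild types, higher without overlap. Over all probe sets 13.5% were higher and 13.4% lower without overlap in this comparison, against 3 and 2 of the 10 genes. The fit pools the spread of all 4 groups, and for Tex11 the spread within B6 knockouts was large. Tex12 also passed without 129Sv knockout replicate 3 (-1.14, limma adjusted p = 0.027). Without B6 knockout replicate 3, Tex11 (0.58, limma adjusted p = 0.0388) and Tex12 (-0.86, adjusted p = 0.0272) passed, which made 4 genes called. For Sycp3 (-0.15 to 0.78), Hormad1 (-0.16 to 0.58) and Syce3 (-0.66 to 0.43) the interval of the log2 difference covered 0. For Syce1 (0.01 to 0.99) and Syce2 (0.04 to 0.65) the interval lay above 0, with only its lower end close to 0. Across the 10 genes the median log2 difference was 0.33, against -0.0079 over all probe sets, and 7 were positive.

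**Figure D1:**
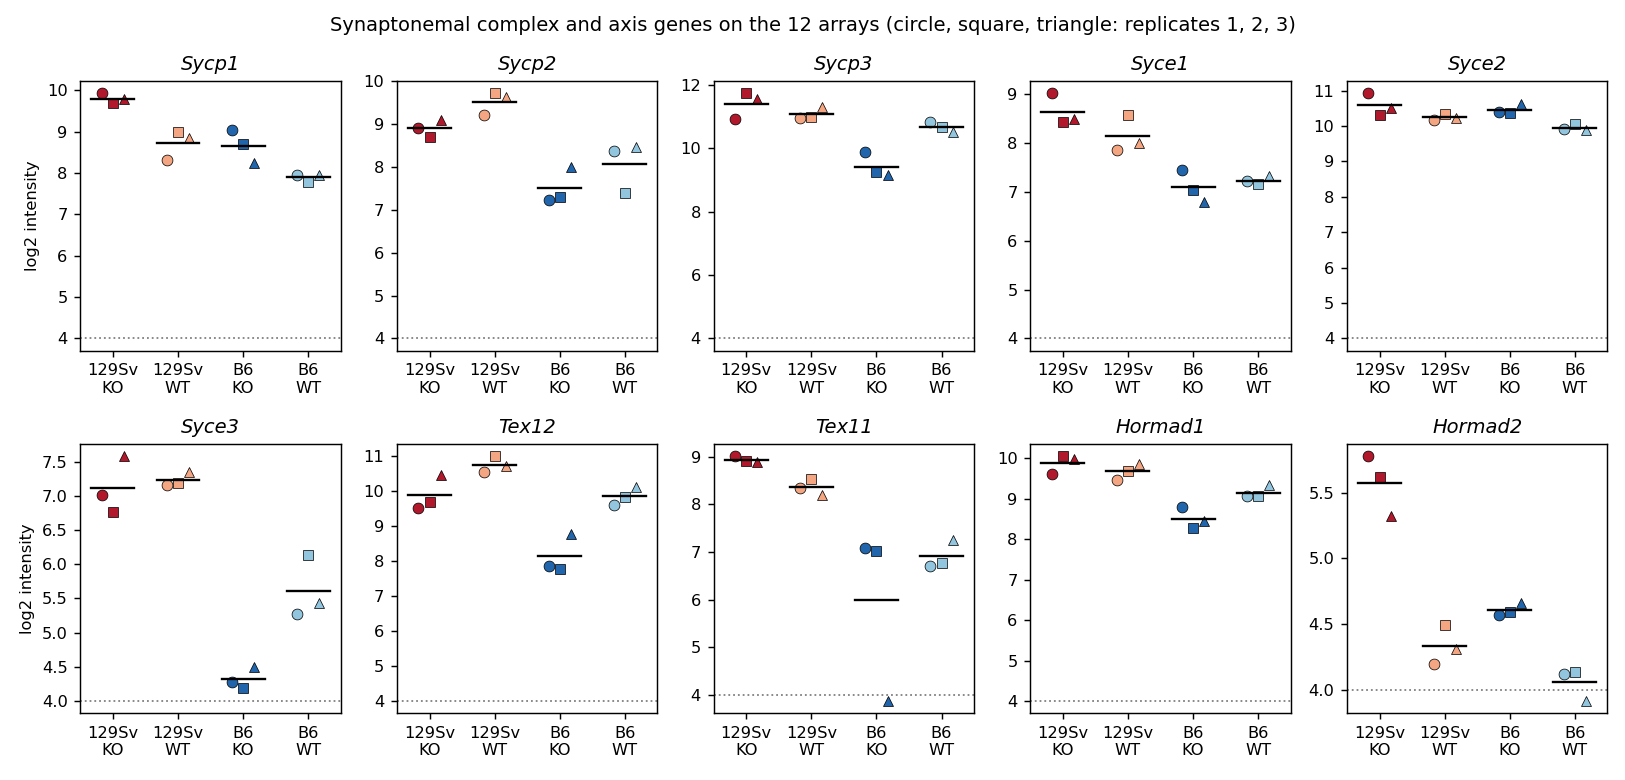
The log2 intensity (vertical axis) of each of the 10 genes on each of the 12 arrays, with 129Sv knockout, 129Sv wild type, B6 knockout and B6 wild type from left to right. Circles, squares and triangles are replicates 1, 2 and 3, horizontal bars are group means, the dotted line is the filter level of 4, and the vertical scale differs between genes. Tex11 in B6 knockout replicate 3 lies just below the dotted line, and the wild-type arrays of 129Sv lie above those of B6 for all 10 genes.

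In B6 testes 4 genes fell in the knockout, Sycp3 and Hormad1 of the axis and Tex12 and Syce3 of the central element, and none rose past the threshold. Of all probe sets 4.61% were called in this comparison, 1.17% higher and 3.44% lower. Tex12 read 233.49, 218.29 and 434.97 in knockouts and 780.07, 902.53 and 1095.86 in wild types. Even the highest knockout array lay well under the lowest wild type, and the log2 difference was -1.71 ± 0.28 (SE, n = 3 per group, 3.26-fold, limma adjusted p = 0.00318). Sycp3 read 942.36, 605.10 and 566.24 in knockouts and 1830.89, 1630.88 and 1477.49 in wild types (-1.26 ± 0.22, 2.39-fold, limma adjusted p = 0.00467). Syce3 was dim in knockouts, at 19.44, 18.24 and 22.66, and read 38.65, 70.13 and 43.15 in wild types (-1.29 ± 0.25, 2.44-fold, limma adjusted p = 0.0104). The knockout values of Syce3 lay near the filter intensity, where differences are less well measured. Hormad1 read 445.35, 308.90 and 349.67 in knockouts and 536.65, 537.13 and 645.80 in wild types (-0.65 ± 0.17, 1.57-fold). Its call stood at the threshold (limma adjusted p = 0.0465) and held in 2 of the 12 fits that left out 1 array, whose adjusted p ran from 0.023 to 0.206, and in 2 of 12 other settings, where it ran from 0.0287 to 0.189. The left-out fits in which it held were those without 129Sv knockout replicate 1 or B6 knockout replicate 1, and the calls of Sycp3, Tex12 and Syce3 held in all 12. Those 4 genes had no overlap between knockout and wild type, as had 12.8% of all probe sets in the lower direction.

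Both Sycp1 and Syce2 lay higher in B6 knockouts without overlap and just missed the threshold. Sycp1 read 527.62, 414.63 and 303.80 in knockouts and 246.95, 219.61 and 249.62 in wild types, a log2 difference of 0.77 ± 0.21 (SE, interval 0.32 to 1.21, limma adjusted p = 0.0543). Syce2 read 1350.32, 1326.87 and 1567.65 in knockouts and 960.25, 1069.85 and 938.00 in wild types, with 0.51 ± 0.14 (interval 0.21 to 0.82, limma adjusted p = 0.0568). Hormad2 was at 23.75, 24.11 and 25.26 in knockouts against 17.38, 17.61 and 15.06 in wild types, all close to the filter level (0.55 ± 0.19, limma adjusted p = 0.12). Higher values without overlap were thus seen for 3 of the 10 genes, and for 12.0% of all probe sets. When each gene was represented by 1 probe set, which leaves fewer tests, Sycp1 and Syce2 passed and 6 of the 10 genes were called. The remaining 3 genes did not separate the groups. Sycp2 read 150.66, 156.73 and 256.94 in knockouts and 332.47, 167.33 and 354.55 in wild types, and the interval of its log2 difference was -1.17 to 0.03. For Syce1 the interval was -0.62 to 0.35. The median log2 difference of the 10 genes was -0.61, against 0.01 over all probe sets, and 7 of 10 were negative.

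Replicate 3 of the B6 knockouts read Tex11 at 14.57, against 135.38 and 130.09 on the other B6 knockout arrays and 104.99, 109.62 and 152.19 in B6 wild types. Its coefficient of variation in B6 knockouts was 73.1%, whereas those of the 10 genes in the 4 groups otherwise ran from 3.24% to 40.9%. On the same array Tex12 (434.97), Sycp2 (256.94), Syce2 (1567.65), Syce3 (22.66) and Hormad2 (25.26) were the highest of the B6 knockouts. Sycp1 (303.80), Sycp3 (566.24) and Syce1 (110.96) were the lowest there, like Tex11, and Hormad1 lay between. Without that array Sycp1 rose by 0.97 (limma adjusted p = 0.0124), the Tex12 difference was -2.02 (adjusted p = 0.000429), and Sycp3 (-1.12, adjusted p = 0.0143) and Syce3 (-1.38, adjusted p = 0.0121) also passed. Hormad1 no longer did (-0.62, adjusted p = 0.098), and the Tex11 difference was 0.14 (adjusted p = 0.734). The germ cell markers moved in the same comparison. Of the 5 tested, Mael, Dnd1 and Tdrd1 fell in B6 knockouts, and the median log2 difference of the 5 was -0.96. Tdrd1 read 8.75 to 11.65 in B6 knockouts, below the filter level, and passed the filter through the other groups. None of the 5 passed in 129Sv, where the median was -0.22. Ddx4, which encodes an RNA helicase of germ cells in general, differed by -0.46 in B6 (limma adjusted p = 0.124). Markers of other cell types were called as well. The Sertoli cell marker Cst9 was lower in the knockouts of both strains (-1.20 in 129Sv, limma adjusted p = 3.44e-06, and -1.35 in B6, adjusted p = 1.94e-06). Fshr, another Sertoli cell marker, was called lower in both, with knockout intensities of 5.31 to 7.87 that lay below the filter level. The summed intensity of the 8 Sertoli cell markers was 10194 to 11004 in 129Sv knockouts against 13247 to 14415 in 129Sv wild types, and 11330 to 12527 in B6 knockouts against 14097 to 14954 in B6 wild types. Cst9 is part of that sum, at 1461.2 to 1599.1 in 129Sv knockouts against 3368.8 to 3773.3 in wild types. In B6 it read 1371.5 to 1439.8 in knockouts against 3494.9 to 3718.7. The other 6 markers were not called in either strain. In 129Sv knockouts all 6 lay lower, with log2 differences from -0.29 (Sox9) to -0.11 (Inha). In B6 Amh (0.45), Gata4 (0.19) and Inha (0.08) lay higher, and Sox9 (-0.40), Dhh (-0.03) and Aard (-0.21) lower. The median of the 8 was -0.24 in 129Sv and -0.12 in B6. Of the 5 ovarian markers tested, 1 was called in each strain, Rspo1 higher in 129Sv knockouts (1.59, limma adjusted p = 0.00197) and Wnt4 higher in B6 knockouts (0.81, adjusted p = 0.0118). The median of the 5 was -0.14 in 129Sv and 0.16 in B6. These marker counts stand beside 2.74% of all probe sets called higher and 2.51% called lower in 129Sv knockouts. In B6 knockouts the shares were 1.17% higher and 3.44% lower. The part of these markers in the differences of the 10 genes was not tested.

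**Figure D2:**
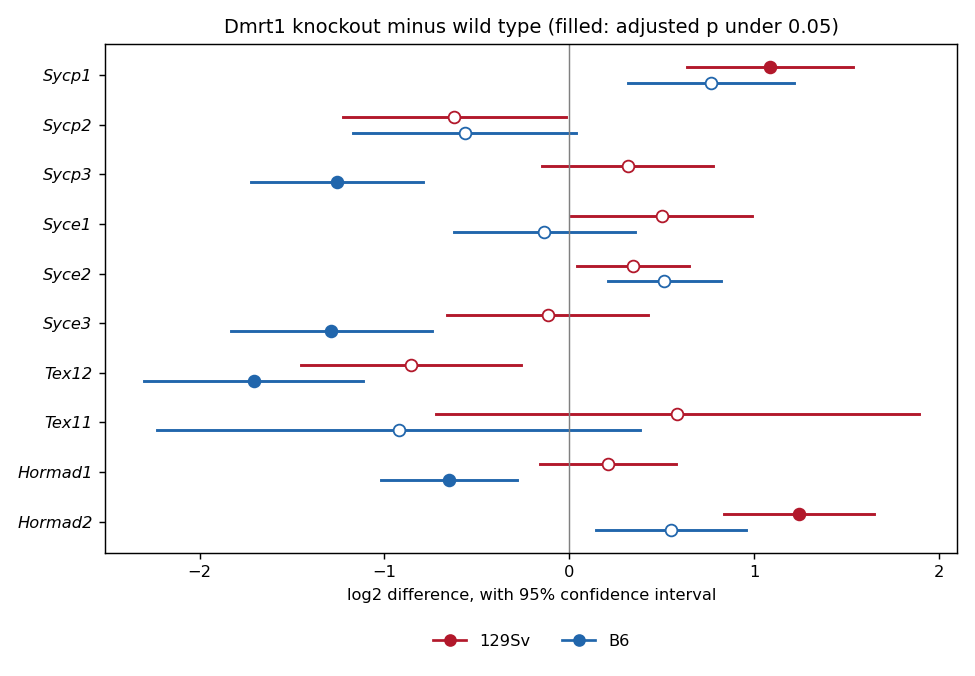
Log2 difference between Dmrt1 knockout and wild type (horizontal axis) with its 95% confidence interval from the limma fit, for 129Sv in red and B6 in blue. Filled points passed an adjusted p of 0.05, which were Sycp1 and Hormad2 in 129Sv and Sycp3, Syce3, Tex12 and Hormad1 in B6.

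No gene was called in the knockouts of both strains, a share that was 0.475% (higher in both) and 1.13% (lower in both) over all probe sets, with 0.0242% called in opposite directions. The difference between the knockout effects, 129Sv minus B6, was therefore tested by itself. limma called none of the 10, against 0.298% of all probe sets (0.274% higher and 0.0242% lower), and 5 of the 10 had an unadjusted p under 0.05, as had 13.1% of all probe sets. Sycp3 came closest, with an effect of 0.32 in 129Sv and -1.26 in B6, a difference of 1.57 ± 0.30 on the log2 scale (SE, limma adjusted p = 0.0543). That gene passed in 7 of 12 other settings and without 129Sv knockout replicate 1 or B6 knockout replicate 1, and its adjusted p over all of them ran from 0.0135 to 0.205. Hormad1 (0.86 ± 0.24, limma adjusted p = 0.158), Syce3 (1.17 ± 0.36, adjusted p = 0.195), Hormad2 (0.69 ± 0.27, adjusted p = 0.295) and Tex12 (0.85 ± 0.39, adjusted p = 0.375) did not pass. For Sycp1 (-0.31 to 0.95), Sycp2 (-0.91 to 0.80) and Syce2 (-0.60 to 0.26) the interval covered 0 and still allows sizeable differences in either direction. The median difference was 0.77 over the 10 genes and -0.0046 over all probe sets.

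Promoter letters are shown for 5 of the 6 genes called in a knockout comparison, because 4 of these carry the same hexamer close to their start. RefSeq promoters of GRCm38.p6 matched 9 of the 10 genes, and the 250 bases before the annotated start were searched on both strands for 3 motifs. These were the E-box CACGTG, bound by basic helix-loop-helix proteins such as MAX and its partners, the E2F-type motif GGCGGGAA, and ACANTGT. The last, with any base allowed at N, is a loose form of the core of the palindromic element of DM domain proteins. Matches are printed in capitals in the sequences, each 5′ to 3′ in the direction of transcription and ending at the base before the start. RefSeq can list a start inside the span of a gene, and 116 of the 250 bases of Hormad2, which is not printed, and 118 of those of Sycp2 lie within it.
Sycp1, chr3:102936101-102936350, minus strand: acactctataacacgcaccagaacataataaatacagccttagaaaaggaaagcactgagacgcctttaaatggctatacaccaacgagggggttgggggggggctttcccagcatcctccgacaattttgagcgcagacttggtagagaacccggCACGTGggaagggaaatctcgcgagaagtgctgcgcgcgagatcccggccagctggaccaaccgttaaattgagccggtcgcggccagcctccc
Sycp3, chr10:88459337-88459586, plus strand: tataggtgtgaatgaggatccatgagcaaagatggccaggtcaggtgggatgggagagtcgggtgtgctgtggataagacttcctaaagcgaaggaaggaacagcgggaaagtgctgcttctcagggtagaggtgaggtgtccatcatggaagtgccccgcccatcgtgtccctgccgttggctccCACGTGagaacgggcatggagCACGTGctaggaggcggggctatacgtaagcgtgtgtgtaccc
Hormad1, chr3:95559427-95559676, plus strand: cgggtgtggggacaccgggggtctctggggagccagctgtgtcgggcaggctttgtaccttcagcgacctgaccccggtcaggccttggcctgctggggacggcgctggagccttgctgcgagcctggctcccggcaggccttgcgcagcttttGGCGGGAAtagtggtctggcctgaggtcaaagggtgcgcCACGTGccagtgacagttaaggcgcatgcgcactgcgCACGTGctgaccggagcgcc
Tex12, chr9:50561269-50561518, minus strand: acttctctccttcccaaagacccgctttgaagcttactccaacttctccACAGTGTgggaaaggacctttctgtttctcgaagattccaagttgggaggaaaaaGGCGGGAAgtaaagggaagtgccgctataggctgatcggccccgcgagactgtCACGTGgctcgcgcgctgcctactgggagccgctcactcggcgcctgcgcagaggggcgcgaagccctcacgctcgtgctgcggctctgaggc
Syce3, chr15:89410504-89410753, minus strand: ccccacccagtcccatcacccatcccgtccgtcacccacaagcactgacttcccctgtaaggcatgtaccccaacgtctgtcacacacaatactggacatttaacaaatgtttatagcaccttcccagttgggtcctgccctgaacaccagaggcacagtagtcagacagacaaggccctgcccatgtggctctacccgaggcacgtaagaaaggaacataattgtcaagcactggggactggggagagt
An E-box was found before Sycp1, Sycp3, Syce2, Tex12 and Hormad1, 5 of 9 genes, against 6.86% of 27025 genes with a promoter. The motif occurred 2 times before Sycp3 and before Hormad1. GGCGGGAA was found before Syce2, Tex12 and Hormad1, against 2.13% of genes, and these same genes held both motifs, as did 0.181% of all genes. ACANTGT was found only before Tex12 among the 9, there as ACAGTGT, against 7.43% of genes. For Syce2 the matches lay before the inner of its 2 annotated starts, in a window with 147 of 250 bases inside the gene span, and Hormad1 and Syce3 also have 2 starts, of which the outer is printed. Among the E-box genes, Sycp3, Tex12 and Hormad1 fell in B6 knockouts and Sycp1 rose in 129Sv knockouts, so the letters did not go with 1 direction. The 250 bases held 17 CpG before Sycp1, 12 before Sycp3, 20 before Tex12 and 19 before Hormad1, against 10 before Hormad2, 5 before the outer start of Syce3 and a median of 6 over 32851 promoters. Syce1 held 13, Sycp2 7 and the inner start of Syce3 11, all without a motif match. The outer start of Syce2, also without a match, held 11, and its inner start 24. A match is a description of letters and not a measured binding site.

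**Figure D3:**
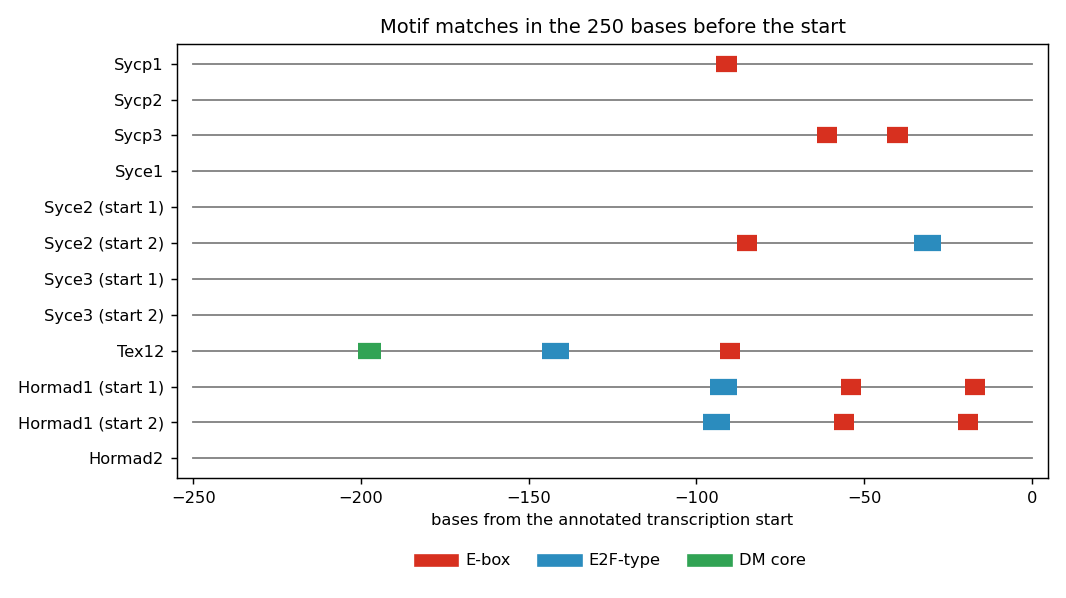
Positions of the 3 motifs in bases before the annotated transcription start (horizontal axis) for each start of the 9 genes found in the promoter table. Red is the E-box, blue the E2F-type motif and green ACANTGT, labelled DM core. Every E-box lies nearer to a start than the ACANTGT match of Tex12.

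All 10 genes were higher in 129Sv than in B6 among wild types, every 129Sv array above every B6 array, which held for 22.9% of all probe sets, while 15.4% were lower without overlap. The threshold was passed by 5, against 8.22% of all probe sets called higher, 5.35% called lower and 13.6% called in either direction. Syce3 read 143.41, 145.83 and 162.09 in 129Sv wild types and 38.65, 70.13 and 43.15 in B6 wild types, and differed by 1.62 ± 0.25 on the log2 scale (SE, n = 3 per group, 3.07-fold, limma adjusted p = 0.00103). Sycp2 differed by 1.45 ± 0.28 (2.72-fold, limma adjusted p = 0.00454), Syce1 by 0.91 ± 0.23 (1.88-fold, adjusted p = 0.0178), Sycp1 by 0.82 ± 0.21 (1.77-fold, adjusted p = 0.0191) and Tex12 by 0.91 ± 0.28 (1.87-fold, adjusted p = 0.0446). Both Syce3 and Sycp2 passed in every fit that left out 1 array. The count of 5 became 2 without 129Sv wild-type replicate 2, B6 wild-type replicate 1 or B6 wild-type replicate 2, and 3 without 129Sv wild-type replicate 3. Tex11 differed by 1.44 ± 0.61 (limma adjusted p = 0.139), and without B6 knockout replicate 3, which enters only the shared spread, its adjusted p was 5.4e-05. The differences of Hormad1 (0.52), Sycp3 (0.41), Syce2 (0.30) and Hormad2 (0.28) did not pass. The median over the 10 genes was 0.865, against 0.02 over all probe sets, and the 5 germ cell markers had a median of 0.41 with none called.

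Between the knockout groups the strains stood further apart. Of the 10 genes 9 were higher in 129Sv knockouts than in B6 knockouts, beside 17.2% of all probe sets called higher, 12.7% called lower and 30.0% called in either direction. Tex11 had the greatest difference, 2.95 ± 0.61 on the log2 scale (SE, n = 3 per group, limma adjusted p = 0.00304), which was 1.89 (adjusted p = 1.08e-05) without B6 knockout replicate 3. Syce3 followed with 2.79 ± 0.25 (6.92-fold, limma adjusted p = 6.52e-06), at 128.38, 108.23 and 191.45 in 129Sv knockouts and 19.44, 18.24 and 22.66 in B6 knockouts. Sycp3 differed by 1.98 ± 0.22 (3.96-fold, limma adjusted p = 3.12e-05), at 1952.90, 3413.16 and 3004.33 in 129Sv against 942.36, 605.10 and 566.24 in B6. The weakest 129Sv array lay far above the strongest B6 array. Tex12, Syce1, Sycp2, Hormad1, Sycp1 and Hormad2 differed by 0.97 to 1.76, each without overlap (22.9% of all probe sets were higher and 19.2% lower without overlap), and the call of every one of the 9 held in all 12 fits that left out 1 array. Syce2 was alone in not passing, at 1940.00, 1277.79 and 1468.87 in 129Sv knockouts and 1350.32, 1326.87 and 1567.65 in B6 knockouts (0.12 ± 0.14, interval -0.18 to 0.43, limma adjusted p = 0.529). Its arrays overlapped between the strains. The median over the 10 genes was 1.47, against 0.01 over all probe sets.

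Markers of the cell types moved between the knockout groups as well. All 5 germ cell markers tested were called higher in 129Sv knockouts, with a median log2 difference of 0.97. Among them Tdrd1 lay below the filter level on every B6 knockout array (8.75 to 11.65). Of the fetal Leydig cell markers 3 of 4 were called lower in 129Sv, as were 3 of 5 endothelial, 2 of 5 macrophage and 3 of 8 Sertoli cell markers. The only red blood cell marker tested, Alas2, was also lower. None of the 4 peritubular and interstitial markers was called (median -0.05). Of the 5 ovarian markers Rspo1 and Irx3 were called higher and Wnt4 lower, with Irx3 below the filter level in B6 knockouts (10.4 to 13.53). Over all probe sets 17.2% were called higher and 12.7% lower in this comparison. The part of these markers in the strain differences was not tested. The strain comparisons use the same arrays as the knockout comparisons and are no separate sample of either.

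**Figure D4:**
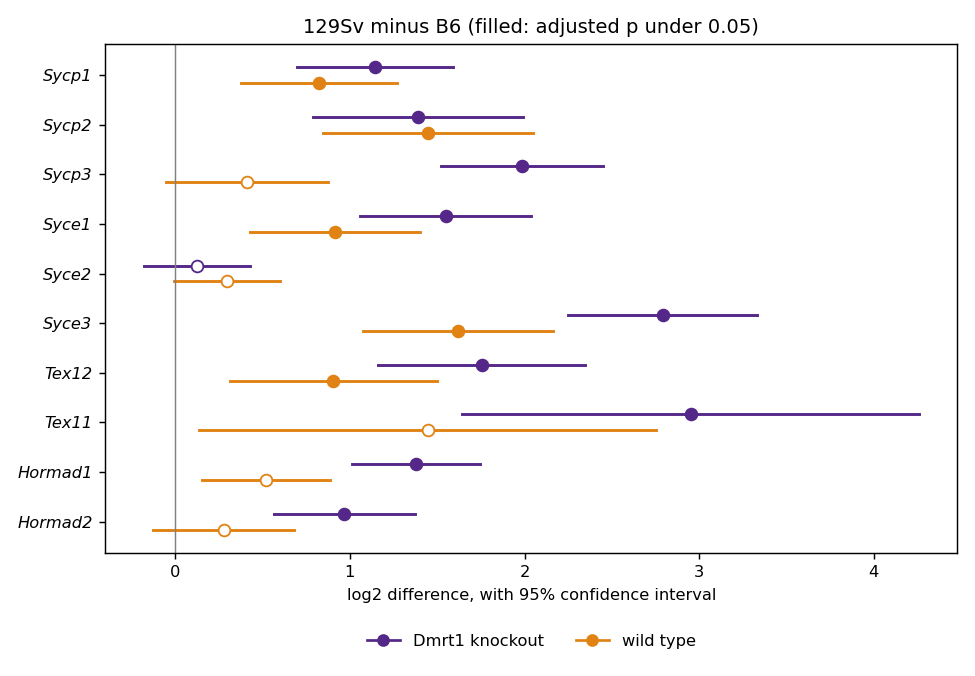
Log2 difference between 129Sv and B6 (horizontal axis) with its 95% confidence interval from the limma fit, for Dmrt1 knockouts in purple and wild types in orange. Filled points passed an adjusted p of 0.05, which were 9 of 10 in knockouts and 5 of 10 in wild types.

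The order of the 4 groups differed between genes. Sycp1, Sycp3, Syce1, Syce2, Tex11, Hormad1 and Hormad2 had their highest mean log2 value in 129Sv knockouts, and Sycp2, Syce3 and Tex12 in 129Sv wild types. B6 knockouts were lowest for Sycp2, Sycp3, Syce1, Syce3, Tex12, Tex11 and Hormad1, and B6 wild types for Sycp1, Syce2 and Hormad2. Neighbours in that order overlapped in part. For Sycp3, Syce1, Syce3 and Hormad1 the knockout and wild-type arrays of 129Sv overlapped, for Sycp1 the 129Sv wild types overlapped the B6 knockouts, for Tex12 the 129Sv knockouts overlapped the B6 wild types, and for Sycp2, Syce1 and Tex11 the B6 groups overlapped. For Syce2 the knockouts of both strains overlapped. Hormad2 alone had no overlap between any neighbours.

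Other meiosis genes were read from lists of partners of the axis, meiotic cohesins, meiotic entry, recombination and telomere attachment, of which 24 genes were tested with 1 probe set each. In 129Sv knockouts 3 of the 24 rose and 1 fell, beside 2.74% of all probe sets called higher and 2.51% called lower. One of the 3 is Mei4, which acts in forming meiotic DNA breaks and read 43.74 to 75.71 in 129Sv knockouts. Its wild-type values of 8.83 to 11.72 were below the filter level, and it passed the filter through the 129Sv knockouts, so no fold is given. The cohesin genes Smc1b (1.09 on the log2 scale, limma adjusted p = 0.00965) and Rec8 (0.91, adjusted p = 0.0245) also rose, and Tex15, a recombination gene, fell by 0.84 on the log2 scale (adjusted p = 0.0402). In B6 knockouts 5 of the 24 fell, namely Tex15 (-1.66, limma adjusted p = 0.000691), Ccnb1ip1 (-1.24), Zglp1 (-1.37), Stra8 (-1.24) and the cohesin gene Stag3 (-1.08). Of all probe sets 3.44% were called lower and 1.17% higher in B6 knockouts. Mei4 was called higher there, but only 1 of the 6 B6 arrays, at 21.45, was above the filter level. Stra8, the retinoic acid target that starts meiosis, was dim throughout, at 14.39, 16.36 and 25.62 in B6 knockouts and 69.25, 39.92 and 28.97 in B6 wild types. The median log2 difference of the 24 was 0.21 in 129Sv knockouts and -0.29 in B6 knockouts. Between strains 16 of 24 were called higher and none lower in 129Sv knockouts against B6 knockouts, and 7 higher and 2 lower in wild types. Over all probe sets 17.2% were called higher and 12.7% lower among knockouts, and 8.22% higher and 5.35% lower among wild types. Both counts of higher genes include Meiob and Terb2, whose B6 values all lay below the filter level, so that they passed the filter through the 129Sv arrays. The count among knockouts also includes Mei4, at 12.39, 13.5 and 21.45 in B6 knockouts.

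**Figure D5:**
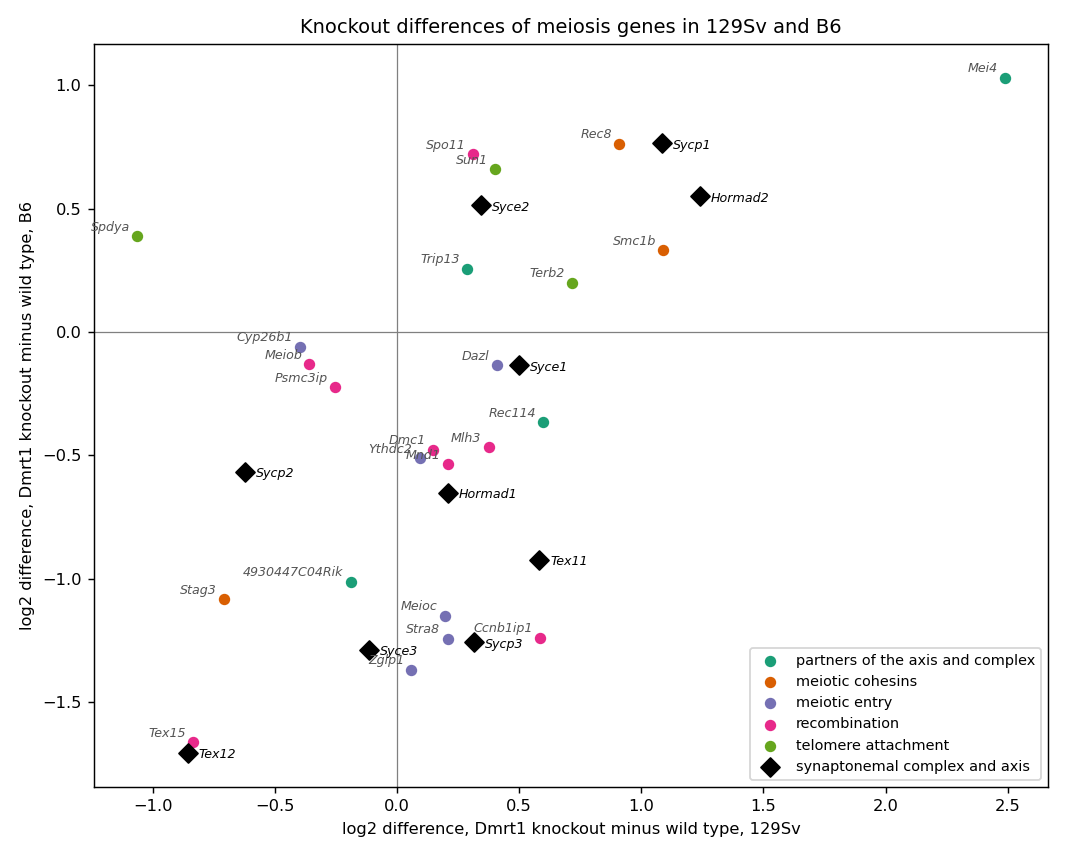
Log2 difference between Dmrt1 knockout and wild type in 129Sv (horizontal axis) and in B6 (vertical axis) for the 10 synaptonemal complex and axis genes (black diamonds) and the 24 other meiosis genes (coloured by list). Tex12 lies beside Tex15 at the lower left and Sycp1 beside Rec8 at the upper right, and the strains share no array. The position of Mei4 rests on wild-type values below the filter level.

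Genes with the most similar profiles were sought among 12716 other tested genes by the root mean square difference of log2 values over the 12 arrays, each profile centred on its own mean. For Tex12, whose own profile had a root mean square of 1.00, the nearest were Clec10a (0.194), Tex15 (0.198) and 4933427D06Rik (0.211). For Sycp3 (0.797) they were Tdrd5 (0.255), Ube2t (0.272) and Mpzl2 (0.274), and for Sycp1 (0.718) Caprin2 (0.177), Elavl2 (0.181) and Micalcl (0.182). Hormad1 (0.562) was nearest to Rasal2 (0.121), Hormad2 (0.586) to Sh3bp4 (0.105) and Syce3 (1.22) to Sult4a1 (0.29). The nearest genes of these 6 profiles did not include another gene of the synaptonemal complex, because the 10 were left out of the search.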

How the data were processed

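Total RNA of E15.5 testes was labelled with biotin and hybridised to Affymetrix arrays, per the labels. The authors deposited intensities, 1 per probe set and array, made with GCRMA per the submitters' processing notes, a method that corrects background, normalises quantiles and summarises probes. The GCRMA version and settings are not stated. The deposited values reached down to 1.4 with array medians of 17.34 to 19, so they were read as linear and log2 was taken here. Precision is set by having 3 arrays a group.

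Names come from the platform annotation, and RefSeq (GRCm38.p6) gave current symbols for its Entrez identifiers. Of 45101 probe sets 34958 had 1 gene, 932 several and 9211 none, and 64 control probe sets stayed out. With limma 3.58.1 in R 4.3.3, 4 group means were estimated (lmFit, eBayes with trend, 8 residual and 5.28 prior degrees of freedom) for the 24820 probe sets with a log2 value of at least 4 on at least 3 arrays. P-values were adjusted by Benjamini-Hochberg over all of them. All probe sets were fitted, rather than 1 per gene, because the members are probe sets. Errors of log2 differences are standard errors of this fit, and folds are between geometric means. The fit was tested on simulated data.

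Members and lists were chosen with earlier results of these data known. Besides members, genes were named from the lists of pathway and cell type genes (each by its probe set of highest mean) and, for genes of like pattern, as the nearest up to 3 per called member. Same-numbered arrays did not pair: their deviations from group means correlated between -0.511 and 0.137. Alternatives were other filters, 1 probe set per gene, other scalings, a floor, no trend, fewer groups, the replicate block, the Actb ratio, the title numbers and codes and each array left out.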

Additional observations from a re-analysis of the deposited data

How the results depend on the processing

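In 129Sv knockouts the 2 genes called became 1 with a filter at a log2 value of 6, which removes Hormad2 from the test, 5 when only the groups of the comparison were fitted, and 2 to 4 when 1 array was left out. Adjusting for the title number, which leaves 1 wild-type array to compare with, gave smaller differences for both (Sycp1 0.80 and Hormad2 1.08). In B6 knockouts the 4 became 2 (Sycp3 and Tex12) when only its groups were fitted, and 3 to 5 with 1 array left out. For the difference of the knockout effects, 0 became 1, always Sycp3, with the filter at 6, with 1 probe set per gene, with median centring, with the floor at 4, with the Actb ratio as a covariate and without the 2 arrays of the highest Actb ratio, and 0 to 1 with 1 array left out. Among wild types the 5 genes higher in 129Sv became 8 when only those groups were fitted, and 2 to 7 with 1 array left out. Among knockouts the 9 stayed at 8 to 9 in other settings and at 9 with any array left out. The cause was not tested. With the replicate block 2, 3, 0, 5 and 9 genes were called in these comparisons, and Hormad1 in B6 did not pass (limma adjusted p = 0.078). In the titles of B6 replicates 1 and 2 the knockout and the wild type share a code whose meaning is not given. With that code as a covariate, an alternative chosen after seeing the data, 3 genes were called in B6 knockouts (Hormad1 at limma adjusted p = 0.0507) and the difference of effects went to 1, Sycp3 (adjusted p = 0.0324). No called difference of the 10 genes changed sign under any alternative. Fitting only the groups compared could not be applied to the difference of effects, which uses all 4 groups. Hormad2, Syce3 in B6 knockouts and Tex11 in 1 array lay near the filter intensity, which limits how well their differences are measured.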

Other observations

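Tex11 was the gene of the complex and axis with the most unequal arrays within a group, noticed after its values were seen. On the log2 scale B6 knockout replicate 3 differed from the mean of the other B6 knockout arrays by -3.19, and 10 of 24820 probe sets, Tex11 included, fell as far or further there. Its nearest tested neighbours on the X chromosome in RefSeq order did not show such a gap. Dlg3 read 1125 on that array against 1542 and 1715 on the other B6 knockouts, and Snx12, beyond Slc7a3 on the other side, read 1321 against 1066 and 930. The nearer gene Slc7a3 was at or below background, at 9.46 against 15.74 and 19.3. 

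Meiob, which encodes a single-strand DNA binding partner in meiotic recombination, was above the filter level on the 129Sv arrays and on none of the B6 arrays. It read 31.26 to 36.28 in 129Sv knockouts and 35.6 to 53.88 in 129Sv wild types, against 3.58 to 6.42 in B6 knockouts and 4.3 to 7.01 in B6 wild types. It passed the filter through the 129Sv arrays, and the B6 values, below the filter level, carry little signal, so no fold is given. The knockout difference in 129Sv was -0.36 on the log2 scale (limma adjusted p = 0.575).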
